A study of Mus musculus with 50 samples.

Results

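The 9 genes described here restrain cell division or are used to mark resting blood stem cells, and they were chosen by name: Cdkn1a, Cdkn1b, Cdkn1c, Cdkn2c, Cdkn2d, Txnip, Pdzk1ip1, Btg1 and Btg2. All 9 were found among the 19224 genes of the count table. Their levels were followed in 3263 cells with at least 1 count of Procr, called Procr+ here, out of 4185 cells that passed the filters, and in cells carrying markers of single blood lineages. The cells came from irradiated B6-Ly5.2 mice that had received 1 haematopoietic stem cell (HSC) of a B6-Ly5.2 donor carrying a β-actin-GFP transgene, together with unlabelled whole marrow of B6-Ly5.2 mice as competitor. Of the 50 samples, 10 were taken 1 month after transplantation, 26 after 4 months and 14 after 12 months. Marrow alone was the source of 5, 22 and 8 of them, and marrow with spleen of 5, 4 and 6. Every recipient had been irradiated and transplanted, and no untransplanted animal was among these samples. Progeny of 1 stem cell, competitor cells and surviving host cells can all lie in the pool, since sorting used surface markers or GFP. Cells had been enriched for c-Kit and stained for CD201 (the Procr protein), CD150, CD48, Sca-1 and the lineage antigens B220, Gr-1 and TER-119; which gate each cell came from was not analysed here.

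CDK inhibitors bind cyclin-dependent kinases, the enzymes that drive cells through the cycle. The Cip/Kip proteins p21 (Cdkn1a), p27 (Cdkn1b) and p57 (Cdkn1c) act on several cyclin-CDK complexes, whereas the INK4 proteins p18 (Cdkn2c) and p19 (Cdkn2d) act on Cdk4 and Cdk6. Adult HSCs spend most of their time outside the cycle, and loss of p57 is known to reduce that resting pool. Txnip encodes an alpha-arrestin that binds thioredoxin and lowers glucose uptake. Pdzk1ip1 encodes a small membrane protein whose promoter is used in HSC reporter mice. Btg1 and Btg2 encode antiproliferative proteins that bind the CCR4-NOT deadenylase, which shortens messenger RNA tails.

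In GENCODE vM21 (GRCm38) the 9 protein-coding genes lie on 8 chromosomes, with Cdkn2c (4:109660876-109667189, minus strand) and Pdzk1ip1 (4:115088708-115093899, plus strand) both on chromosome 4. Cdkn1c, an imprinted gene, lies at 7:143458339-143461050 on the minus strand, and Txnip at 3:96557957-96561883 on the plus strand. RefSeq upstream sequence (GRCm38.p6) was matched for 8 of the 9 genes. The 250 bases before the start sites of Txnip and Pdzk1ip1 are printed because the levels of these genes were both lowest in the Procr+ cells with most cycling transcripts. Both are plus-strand sequences, chr3:96557707-96557956 and chr4:115088458-115088707, and capitals mark matches to the motifs named after them.
Txnip: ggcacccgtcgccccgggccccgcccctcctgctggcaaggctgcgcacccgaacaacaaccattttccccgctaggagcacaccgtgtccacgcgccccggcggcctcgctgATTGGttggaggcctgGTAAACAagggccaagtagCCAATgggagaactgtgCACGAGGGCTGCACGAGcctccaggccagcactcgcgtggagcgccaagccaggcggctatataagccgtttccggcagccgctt
Pdzk1ip1: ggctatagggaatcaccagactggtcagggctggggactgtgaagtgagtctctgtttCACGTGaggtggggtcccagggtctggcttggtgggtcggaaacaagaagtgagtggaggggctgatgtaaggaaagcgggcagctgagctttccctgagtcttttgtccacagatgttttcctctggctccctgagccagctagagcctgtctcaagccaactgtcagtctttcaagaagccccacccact
Motifs were searched on both strands. The Txnip sequence held 1 pair of E-box-like elements, CACGNG and CNCGNG with 5 bases between them, beginning 85 bases upstream of the start. Such a pair was found in 0.28% of 32851 upstream regions of the same length. It also held the CCAAT box CCAAT at 2 places (in 33.8% of all regions) and the FOXO motif GTAAACA at 1 (in 3.17%). The Pdzk1ip1 sequence held 1 E-box CACGTG, beginning 192 bases upstream, a motif present in 6.02% of all regions. A match describes the letters only, since binding was not measured.

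The table held 67 libraries of 22 to 92 cells with 1665151 to 26184494 counts each, with a median of 122013 counts in a cell that passed. No column name held a sample title, so cells could not be assigned to a mouse, tissue or time, and the 3 times after transplantation were not compared. All cells were therefore 1 pooled sample with no replicate check, and no p-value is given. Levels are summed counts of a group scaled to that group's total count (CPM). A gene was compared where it reached 16 CPM in either group, and a difference of 1.5-fold or more in CPM + 1 was called higher or lower. Bracketed ranges are exact 95% Poisson intervals, which cover counting error only, and sequenced reads are not independent molecules. Libraries are not replicates of a condition, and values over them (at least 5 cells of each group) show how far 1 library speaks for the rest. The Procr+ cells had the HSC transcripts Hlf (208 CPM, against 83.0 in cells with no Procr count) and Mecom (149.6 against 60.8). In 9 libraries the Procr+ cells held 1000 CPM or more of 10 neutrophil marker genes (median of all libraries 13.95, highest 11420), and 521 Procr+ cells carried 3 or more markers of another lineage.

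Among Procr+ cells, Txnip and Pdzk1ip1 were at lower levels with more proliferation transcripts within each of the scales used here. The 7 other genes did not follow a common course. Of these, Cdkn1c, under 16 CPM throughout, and Cdkn2c were also lowest in the cells with most proliferation transcripts. Procr+ cells were split by Mki67 and Top2a, transcripts of dividing cells. The 1632 cells with no count of either formed 4 groups of equal size (Mcm groups 1 to 4, from low to high) by their summed level of Mcm2 to Mcm7, which encode the replicative helicase. The remaining cells formed steps of the summed Mki67 and Top2a level up to 500 CPM or more, the last holding 174 cells.

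**Figure D1:**
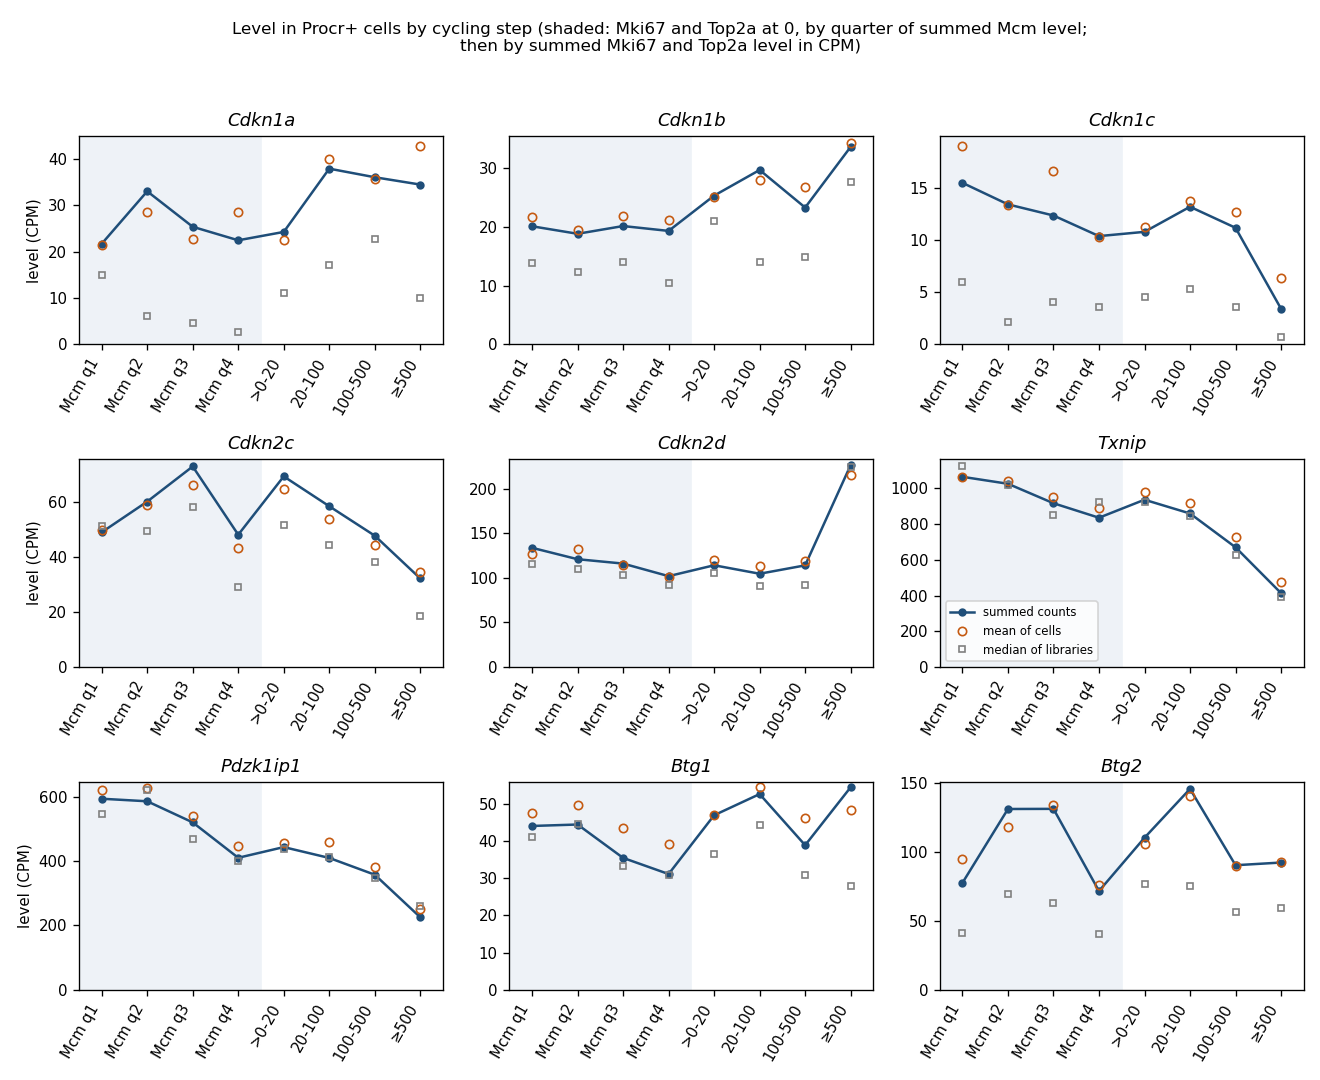
Level of each gene (CPM, vertical axes from 0) in Procr+ cells over 8 steps of cycling transcripts, as summed counts (filled points), mean of cells (circles) and median of libraries with at least 5 cells (squares). Txnip ran from 1065 CPM in Mcm group 1 to 414 CPM in the highest step and Pdzk1ip1 from 593 to 225 CPM, while Cdkn2d was near its other values until the last step, at 227 CPM.

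Over the 4 Mcm groups Txnip had 1065, 1026, 917 and 836 CPM. Over the 4 steps of Mki67 and Top2a it had 937, 859.7, 670.4 and 414 CPM [408.0 to 419.8]. Pdzk1ip1 had 593, 585, 519.8 and 409.9 CPM over the Mcm groups, then 443, 409.4, 357 and 225 CPM [220.7 to 229.4]. Both genes were thus lowest in the step with most Mki67 and Top2a, and both had a slightly higher value in the cells with a trace of these transcripts than in Mcm group 4. In 15 libraries with at least 5 cells of both kinds, Txnip in the cells at 500 CPM or more was 305 CPM at the lowest, 399 at the median and 1017 at the highest. In their cells with no Mki67 or Top2a count it was 463, 1103 and 1855 CPM. The ranges overlapped across libraries, but within a library the dividing cells had the lower Txnip level in 15 of 15. Pdzk1ip1 was lower in 14 of the 15, with medians of 266 CPM against 567 CPM.

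When the 987 cells with at least 20 CPM of Mki67 and Top2a were set against the 1632 cells with none, 8 of the 9 genes were at a level to be compared. None was higher and 1, Pdzk1ip1, was lower. Of all 7528 genes compared, 8.26% were higher and 1.61% lower. The median log2 ratio was 0.19 for the 8 genes and -0.0057 for all genes compared. Pdzk1ip1 had 341 CPM [338.3 to 343.8] in the first group and 523 CPM [519.8 to 526.0] in the second, a log2 ratio of -0.62. It was lower in 49 of 57 libraries. Its call sat near the limit: without library Lib68 the log2 ratio was -0.58, which was under 1.5-fold. Txnip had 671 CPM against 956 CPM, a log2 ratio of -0.51 that did not reach 1.5-fold, and was the lower value in 51 of 57 libraries. Over these libraries Txnip ran from 239.6 to 1329 CPM (median 647) in the first group and from 379 to 1855 CPM (median 902) in the second. The cells with no Mki67 or Top2a count were shallower, with a median of 114227.5 counts against 133092. Thinned to 20000 counts per cell, with the groups formed anew, the log2 ratios were -0.28 for Txnip and -0.41 for Pdzk1ip1, neither of which reached 1.5-fold. The thinned groups can hold other cells, so depth and group membership cannot be told apart in these or the other thinned log2 ratios.

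**Figure D2:**
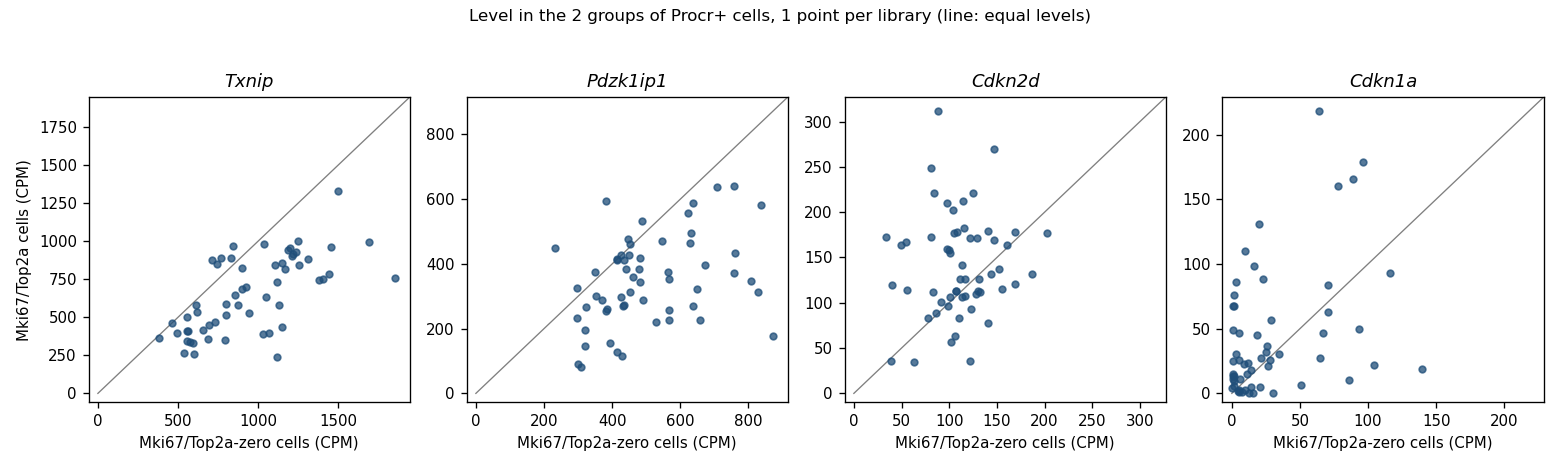
Each point is 1 of 57 libraries, with its level (CPM) in Procr+ cells without Mki67 or Top2a counts on the horizontal axis and in cells with at least 20 CPM of them on the vertical axis, and the line marks equal levels. Points lie below the line in 51 libraries for Txnip and 49 for Pdzk1ip1, against 21 for Cdkn2d and 22 for Cdkn1a.

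Neutrophil markers, globin transcripts and Procr moved with the same split. The 10 neutrophil markers summed to 76.6 CPM in the cells with no Mki67 or Top2a count and 1802 CPM in those with at least 20 CPM, and globins to 464 and 2599 CPM. The neutrophil markers had been kept for reaching 50 CPM in under 10% of the cells with no Mki67 or Top2a count. Their low sum in those cells was thus in part set by that rule, which was not applied to the globins. Procr had 318 CPM in the first and 172 CPM in the second, and 81.6 CPM in the highest step. When at least 50 CPM of Procr was required of each cell, Pdzk1ip1 no longer reached 1.5-fold. Without the Procr+ cells that carried markers of another lineage, leaving 729 and 1467 cells, the log2 ratio was -0.59 for Pdzk1ip1 and -0.48 for Txnip. Without the 9 libraries richest in neutrophil transcripts they were -0.64 and -0.56. By step, without the marked cells Txnip ran from 1049 to 435 CPM and Pdzk1ip1 from 607 to 232 CPM between Mcm group 1 and the highest step. The part of other-lineage transcripts and of the Procr level in these differences was not tested.

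Among cells with no Mki67 or Top2a count, the Mcm level was followed next. Between Mcm group 4 and Mcm group 1, 408 cells each, none of the 8 genes compared was higher or lower by 1.5-fold, against 3.95% of 7384 genes higher and 4.02% lower. The median log2 ratio was -0.23 for the 8 genes and -0.0049 for all genes compared. Pdzk1ip1 came closest, with 409.9 CPM against 593 CPM (log2 ratio -0.53), and had the lower level in Mcm group 4 in 30 of 30 libraries. There it ran from 192.5 to 738 CPM (median 447) in group 4 and from 323 to 967 CPM (median 563) in group 1. Txnip had a log2 ratio of -0.35 and the lower value in 24 of 30 libraries. Btg1 had 31.1 against 44.0 CPM (log2 ratio -0.49) and was lower in 19 of 30. Cdkn2d had a log2 ratio of -0.39, lower in 20 of 30, and Btg2 -0.11. By summed counts Cdkn1a, Cdkn1b and Cdkn2c had log2 ratios between -0.06 and 0.05. For Cdkn1a the libraries differed from the sum: the median over them was -1.10, with 18 lower and 11 higher.

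The INK4 genes took separate courses. Cdkn2d had between 102.0 and 134 CPM in the first 7 steps and 227 CPM [222.4 to 231.1] in the cells with 500 CPM or more of Mki67 and Top2a. In 14 of 15 libraries the level in those cells was above that in the cells with no Mki67 or Top2a count. Across these libraries it ran from 13.9 to 404.7 CPM (median 226) in the dividing cells and from 34.2 to 152 CPM (median 105) in the others. The share of thinned cells with a Cdkn2d count was 79.5% of 166 cells in the highest step and 50.7% of 1517 cells with no Mki67 or Top2a count; before thinning it was 87.4% and 63.1%. Without cells carrying other lineages' markers the highest step had 229 CPM. In the wider comparison at 20 CPM, Cdkn2d had 141 against 117.5 CPM, a log2 ratio of 0.26. Cdkn2c had 48.8, 59.98, 72.7 and 48.0 CPM over the Mcm groups and 69.1, 58.3, 47.6 and 32.1 CPM over the later steps. Its lowest value was in the step where Cdkn2d had its highest, and it was the lower value there in 10 of 15 libraries.

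The Cip/Kip genes were counted in few cells. After thinning, 69.1% of the 1517 cells with no Mki67 or Top2a count had no count of Cdkn1a, Cdkn1b or Cdkn1c, and 3.63% had counts of 2 or more of these genes. In the 166 thinned cells of the highest step 47.6% had none. The 76 cells with the highest value, 5% of the 1517, held 84.3% of all Cdkn1a counts, 85.8% of Cdkn1c and 61.9% of Cdkn1b. For Txnip and Pdzk1ip1 such cells held 14.9% and 17.6%. These shares follow the level of a gene and the counts per cell as well as the spread among cells, and a zero at 20000 counts does not show that a cell lacked the transcript.

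**Figure D3:**
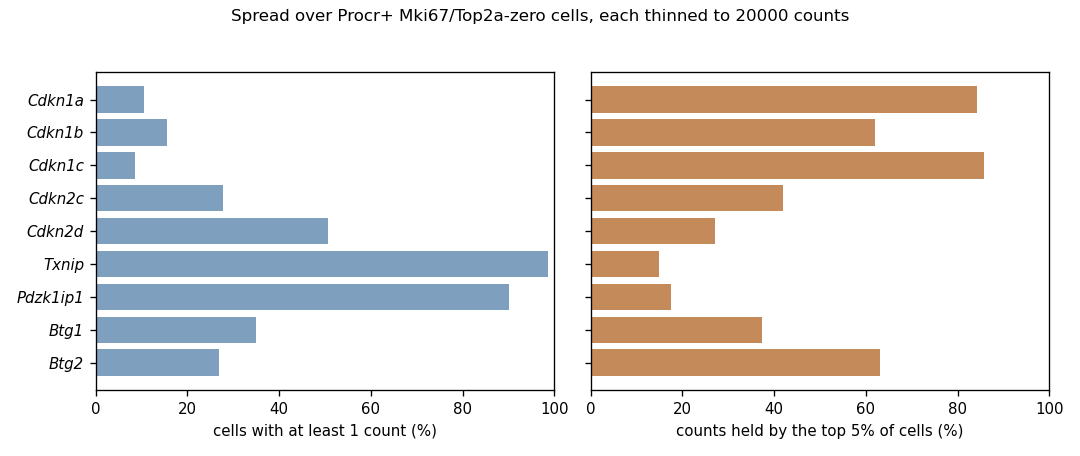
For each gene, the bars give the percentage of 1517 Procr+ cells without Mki67 or Top2a counts, each thinned to 20000 counts, that held at least 1 count (left), and the percentage of the gene's counts held by its top 5% of cells (right). Txnip was counted in 98.7% of cells and Cdkn1c in 8.57%, and the top cells held 85.8% of the Cdkn1c counts.

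Cdkn1a, a target of p53, had 36.3 CPM [35.4 to 37.2] in the cells with at least 20 CPM of Mki67 and Top2a and 25.6 CPM [24.9 to 26.3] in those with none. The log2 ratio of 0.49 did not reach 1.5-fold, but without library Lib50 it was 0.64, and the median over 57 libraries was 0.70. The level ran from 0 to 218 CPM over libraries in the first group and from 0 to 140.0 CPM in the second. Cdkn1b had 28.4 against 19.6 CPM, a log2 ratio of 0.52. That value was 0.20 without the cells carrying other lineages' markers, and it was higher in 28 libraries and lower in 29. Cdkn1c had 15.5, 13.4, 12.4 and 10.4 CPM over the Mcm groups and 3.42 CPM [2.91 to 4.00] in the highest step, where it was the lower value in 12 of 15 libraries. No library gave more than 8 cells to that step, and Cdkn1c was counted in only 8.57% of thinned cells with no Mki67 or Top2a count. So few cells can give a low library value at an equal level, and nothing is read from that library count. Cdkn1c was under 16 CPM in both groups of the cycling comparison (9.86 against 12.8 CPM) and was therefore not compared there.

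Btg1 and Btg2 had no steady course with cycling. Btg1 had a log2 ratio of 0.31 in the comparison at 20 CPM, from 48.1 against 38.5 CPM. Without cells carrying other lineages' markers it was -0.20, and the median over libraries was -0.35. Btg2 had 111.5 against 102.5 CPM (log2 ratio 0.12), which became -0.12 without the marked cells. Btg2 differed widely among libraries, from 0 to 529 CPM (median 55.8) in the first group and from 0 to 381 CPM (median 69.9) in the second.

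Cells with a stem-cell surface profile held more Cdkn1c and Pdzk1ip1 than cells with a multipotent progenitor profile. The 155 Procr+ cells with a Slamf1 count and no Cd34 count (Slamf1 encodes CD150, a marker of long-term HSCs) were set against 1236 Procr+ cells with counts of both Cd34 and Flt3. All 9 genes were compared, 2 were higher and 1 was lower, against 7.4% of 7672 genes higher and 8.86% lower. Cdkn1c had 19.6 CPM [17.6 to 21.9] against 8.75 CPM [8.37 to 9.15], a log2 ratio of 1.08, and was higher in 8 of 11 libraries. Pdzk1ip1 had 688 CPM [675.6 to 700.8] against 360.2 CPM [357.7 to 362.7], a log2 ratio of 0.93. Over the 11 libraries it ran from 469 to 1051 CPM (median 828) in the first group and from 204 to 551 CPM (median 426) in the second, and it was higher within each of the 11. Cdkn1b was the gene that was lower, at 14.8 against 26.9 CPM (log2 ratio -0.82) and in 10 of 11 libraries. For Cdkn1b the median log2 ratio over the 11 libraries was -2.09. No library gave more than 12 cells to the first group, and Cdkn1b was counted in 15.5% of thinned Procr+ cells with no Mki67 or Top2a count. So few cells can give a low library value at an equal level, which limits this median and the count of 10 libraries. Without the 9 libraries rich in neutrophil transcripts Cdkn1b had a log2 ratio of -0.50, and thinned to 20000 counts per cell -0.53, both under 1.5-fold, as it was at a pseudocount of 10 CPM (-0.58). Without those libraries Cdkn1c stood at 1.21 and Pdzk1ip1 at 0.92. Txnip had 1054 against 770.4 CPM (log2 ratio 0.45) and did not reach 1.5-fold. Cdkn2c and Btg2 had summed log2 ratios of 0.08 and -0.21, but medians over the 11 libraries of -1.33 and -2.35. They were lower in 8 and 7 of these libraries and higher in 3 and 4, and the limit of few cells per library holds for them too. Cdkn2d and Btg1 had summed log2 ratios of -0.18 and -0.47. Cdkn1a had a log2 ratio of 0.16, which was -1.22 without library Lib50 and -0.70 after thinning. The first group was shallower (median 85696 counts per cell against 157778.5) and held less Top2a (24.9 against 131 CPM). Cycling transcripts thus moved with the surface profile, and their part in these differences was not tested. Counts of Slamf1, Cd34 and Flt3 formed the groups and stand for transcripts, not for the surface proteins used in sorting.

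Procr+ cells as a whole were compared with the 922 cells that had no Procr count. Txnip and Pdzk1ip1 were higher, 4 of the 8 genes compared were lower (Cdkn1a, Cdkn1b, Btg1 and Btg2), and 9.3% of 7836 genes were higher and 13.2% lower. Pdzk1ip1 had 442 against 184 CPM (log2 ratio 1.26) and Txnip 855 against 408 CPM (1.07). They were higher in 28 and 27 of 40 libraries, and the medians over libraries were 0.53 and 0.29. The 4 lower values came from a part of the libraries: Btg1 had a summed log2 ratio of -1.51 but was lower in 20 of 40 libraries, with a median of 0.01. For Btg2 the sum gave -1.04 and the median 0.15. For Cdkn1a the sum gave -0.81, the median 0.88, and the sum without library Lib22 -0.58. Cdkn1b, at -0.84 by the sum and -0.04 by the median, was lower in 20 of 40. Cdkn1c, under 16 CPM in both groups and so not compared, had 11.3 against 4.52 CPM and the higher level in Procr+ cells in 28 of 40 libraries. Cells without Procr were a mixture, in which the neutrophil markers summed to 6218 CPM against 823 CPM in Procr+ cells.

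Lineage cells were then taken from the cells with no Procr count, where 3 or more markers of 1 lineage reached 50 CPM and outnumbered those of any other. Groups of at least 15 cells were obtained for B, T, plasma, neutrophil, primary-granule myeloid, erythroid and macrophage markers, and each was set against the 1632 Procr+ cells with no Mki67 or Top2a count. At most 2 libraries held 5 or more cells of both groups, so most of these differences were between libraries. Within those few libraries some went against the sum, in plasma (Cdkn1b, Btg2), erythroid (Cdkn1a, Btg2) and macrophage-marker cells (Cdkn1b, Cdkn2d, Btg1, Btg2), and for Cdkn1a in both libraries of primary-granule cells. In 1 of 2 libraries each, the direction was opposite to the sum for Cdkn1a, Cdkn1b, Cdkn2d and Btg2 in neutrophil cells, for Btg2 in B cells, and for Txnip, Btg1 and Btg2 in primary-granule cells. Pdzk1ip1 was lower within each library in all 7 groups. Primary-granule cells (28) had as many neutrophil markers as markers of their own among their 10 leading genes, 4 and 4, and are described by that rule only. Cdkn1c was under 16 CPM in each of these comparisons, which left 8 genes.

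**Figure D4:**
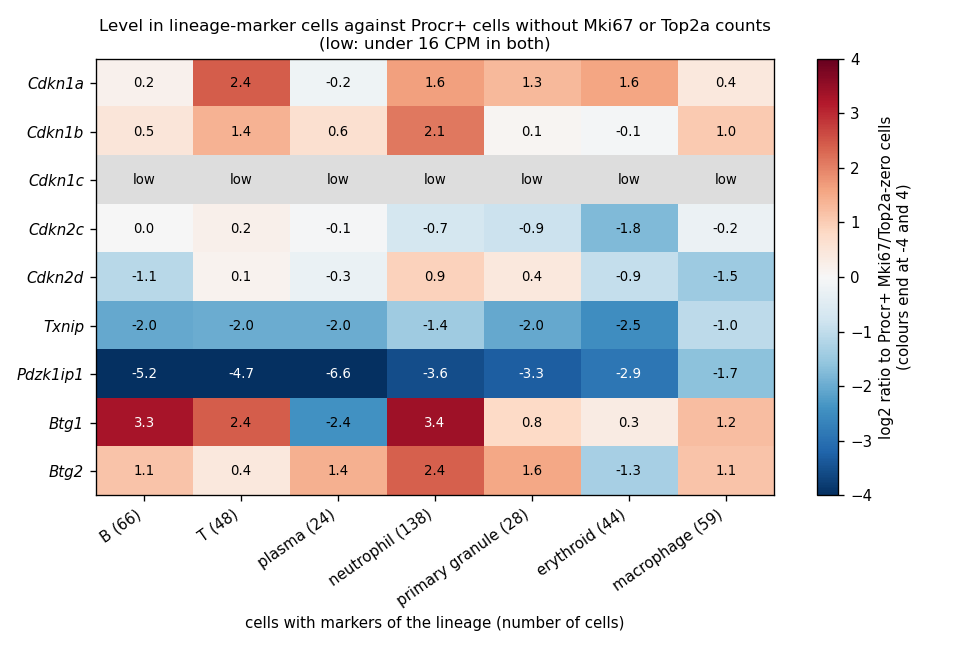
Colour and number give the log2 ratio of each gene's level in lineage-marker cells to that in 1632 Procr+ cells without Mki67 or Top2a counts, with cell numbers under the columns. Pdzk1ip1 and Txnip are lower in all 7 groups, from -1.65 and -1.04 in macrophage-marker cells to -6.57 in plasma-marker cells and -2.50 in erythroid-marker cells, and Cdkn1c is marked low throughout.

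By summed counts Pdzk1ip1 and Txnip were lower in all 7 groups. The Procr+ cells set against them were chosen for no Mki67 or Top2a count. Top2a was 465 CPM in T, 361 in neutrophil, 327 in primary-granule and 262 in erythroid cells. In macrophage, B and plasma-marker cells it was 69.2, 29.0 and 6.43 CPM. Lineage and cycling transcripts thus differed together, and the part of cycling in these differences was not tested. The Txnip call in primary-granule cells was lost when cells were thinned to 20000 counts, with a log2 ratio of -0.50 in place of -2.05. Lineage groups were formed anew from the thinned counts, here and below, so a thinned value can cover other cells. Depth and group membership cannot be told apart in it. Pdzk1ip1 had 523 CPM in the Procr+ cells and 4.50 CPM [1.81 to 9.28] in plasma, 12.8 in B, 18.8 in T, 43.4 in neutrophil, 52.3 in primary-granule, 69.1 in erythroid and 166 CPM in macrophage-marker cells. The B, T and plasma values lay closest to 0, and the B and T intervals [9.74 to 16.6] and [15.1 to 23.1] overlapped. Txnip had 956 CPM in the Procr+ cells. It had 169 CPM in erythroid, 230.2 in primary-granule, 231 in B, 240.6 in plasma and 242 in T cells, and 359 and 466 CPM in neutrophil and macrophage-marker cells. The 4 values between 230.2 and 242 CPM had overlapping intervals. Cdkn1c had 12.8 CPM in the Procr+ cells and no count in 48 T and 24 plasma cells. It was counted in only 8.57% of the thinned Procr+ cells. Few cells of groups this small would hold a count at an equal level, so no fold is read from these zeros. In the other 5 groups it had 0.42 to 3.32 CPM.

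In B-marker cells (66), Btg1 and Btg2 were higher and Cdkn2d, Txnip and Pdzk1ip1 were lower, against 24.7% of 8028 genes higher and 32.5% lower. Btg1 had 388 CPM [369.7 to 406.2] against 38.5 CPM, a log2 ratio of 3.30, and Btg2 had 226 against 102.5 CPM (1.13). Btg2 lost its call when thinned (0.38) and with equal weight per cell (0.36). Cdkn2d, at 54.4 against 117.5 CPM (log2 ratio -1.10), had -1.78 without library Lib1, and Pdzk1ip1, at -5.24, had -5.84 without Lib55. In T-marker cells (48), Cdkn1a, Cdkn1b and Btg1 were higher and Txnip and Pdzk1ip1 lower, against 26.5% of 8036 genes higher and 31.4% lower. Cdkn1a had 142 CPM [131.1 to 152.6] against 25.6 CPM, a log2 ratio of 2.42, with counts in 17 of the 48 cells. Btg1 had 210.2 CPM, and Cdkn1b 52.96 against 19.6 CPM (log2 ratio 1.39), which was 0.55 without library Lib1 and also 0.55 under a stricter minimum of genes per cell. Pdzk1ip1 in T-marker cells had a log2 ratio of -4.73, and -7.27 without Lib22. As a group the T-marker cells also held 465 CPM of Top2a. In the 1 library with 5 or more cells of both groups Cdkn1a was lower in them, against the direction of the sum.

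Plasma-marker cells (24) had a high Btg2 level and a low Btg1 level. Btg2 had 277 CPM [251.7 to 304.7] (log2 ratio 1.43) and Btg1 only 6.43 CPM [3.09 to 11.8] (log2 ratio -2.41, and -3.29 without library Lib13). In all, 2 genes were higher and 3 lower, against 22.3% of 7649 genes higher and 50.5% lower. Cdkn1b was the other higher gene, at 30.9 CPM (log2 ratio 0.63), and lost that call without any 1 of libraries Lib3, Lib8, Lib13 or Lib17, falling to 0.21 in the lowest case. It also lost it with equal weight per cell (0.56) and at a pseudocount of 10 CPM (0.47). The median log2 ratio of all genes compared was -0.61 here and that of the 8 genes -0.22. Scaling by a trimmed mean, whose log2 factor was -0.51, left each call of the 8 genes as it was.

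In neutrophil-marker cells (138), Cdkn1a, Cdkn1b, Cdkn2d, Btg1 and Btg2 were higher and Cdkn2c, Txnip and Pdzk1ip1 lower, against 28.4% of 8229 genes higher and 34.9% lower. Btg1 had 417 CPM [407.5 to 427.2] against 38.5 CPM (log2 ratio 3.40) and Btg2 539 CPM [527.6 to 550.0] against 102.5 CPM (2.38). Cdkn1b had 88.3 CPM (log2 ratio 2.12), Cdkn1a 82.5 CPM (1.65) and Cdkn2d 222 CPM (0.92, beside a median of all genes of -0.17). Thinned to 20000 counts, Cdkn1a had 0.36 and Cdkn2d 0.48, both under 1.5-fold. Cdkn2c had 34.4 against 57.1 CPM, a log2 ratio of -0.71, which fell under 1.5-fold without library TP55 (-0.58) and with trimmed-mean scaling (-0.55). Pdzk1ip1 had -3.56, and -2.62 without TP57, which held 38 of the 138 cells. Primary-granule cells had Cdkn1a, Btg1 and Btg2 higher and Cdkn2c, Txnip and Pdzk1ip1 lower, against 20.3% of 7768 genes higher and 34.8% lower. Btg2 had 303 CPM (log2 ratio 1.56) and Cdkn1a a log2 ratio of 1.29. Btg1 had 67.5 CPM (0.80) and only 0.31 without library Lib22, and its sign turned when thinned (-0.28) and with equal weight per cell (-0.37). Cdkn2c (-0.87) had -1.56 without Lib10 and Pdzk1ip1 (-3.30) had -4.05 without Lib18.

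In erythroid-marker cells (44), Cdkn2c, Cdkn2d, Txnip, Pdzk1ip1 and Btg2 were lower and Cdkn1a higher, against 22.8% of 7681 genes higher and 33.7% lower. Cdkn2c had 16.0 CPM [13.6 to 18.7] (log2 ratio -1.77) and Btg2 40.0 CPM [36.1 to 44.2] (log2 ratio -1.34). After thinning, with the groups formed anew, 3 of the 5 lower calls were lost. The log2 ratios were then -0.09 for Cdkn2c, -0.16 for Cdkn2d (-0.94 before thinning) and -0.36 for Btg2. With equal weight per cell Cdkn2d had -0.48 and Btg2 -0.50, under 1.5-fold, and Cdkn2c -0.67. Cdkn1a had 78.3 CPM (log2 ratio 1.57), which turned to -0.84 without library Lib22, so 1 library carried it. Without Lib22 Txnip had -3.43 in place of -2.50 and Btg2 -0.70. In macrophage-marker cells (59), of which 23 came from library TP56, Cdkn1b, Btg1 and Btg2 were higher and Cdkn2d, Txnip and Pdzk1ip1 lower, against 29.7% of 8261 genes higher and 23.6% lower. Btg2 had 226 CPM (log2 ratio 1.13) and 0.51 without TP56, Txnip had -1.04 and -0.44, Pdzk1ip1 -1.65 and -0.67, and Cdkn2d -1.46 and -0.68. Txnip and Btg2 thus lost their calls without that library. Pdzk1ip1 had -2.26 without Lib116. Btg1 (92.8 CPM, log2 ratio 1.25) and Cdkn1b (41.6 CPM, 1.049) stayed past 1.5-fold whichever library was left out, but Cdkn1b had 0.58 with equal weight per cell, under 1.5-fold.

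Among the members, likeness was greatest for Txnip and Pdzk1ip1, whose log2 levels over the 8 cycling steps and 7 lineage groups had a Pearson correlation of 0.87. Over 3092 thinned Procr+ cells their Spearman correlation was only 0.21, and those with the Mcm sum were -0.20 and -0.18. These are descriptions, and the groups share libraries and the cells share depth. Of 10108 genes at 16 CPM or more in a group, those most like Pdzk1ip1 were Def8 (0.988), Gng11 (0.987) and Dapp1 (0.984). Txnip was most like Ttll7 (0.977), Rsrp1 (0.974) and Ldhd (0.973). Btg1 was most like Actr3 (0.948), Btg2 like 5031439G07Rik (0.939), Cdkn1a like Kcnab2 (0.954), Cdkn1b like Hipk1 (0.923), Cdkn2c like Akr1b3 (0.906) and Cdkn2d like Gm15446 (0.801). Cdkn1c was below 16 CPM in each of the 15 groups and was not ranked.

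Genes that act with the members were counted in the same cycling comparison of Procr+ cells, where 8.26% of all genes compared were higher and 1.61% lower. With lists this short, 1 gene past 1.5-fold is not read as a result about the list. Because Mki67 and Top2a formed the groups, genes whose transcripts vary with the cycle differ by the way the cells were split. Of 13 mitosis genes compared, those 2 included, 13 were higher, as were 10 of 11 G1/S genes. Higher values of such genes in the lists below are therefore not read as results about their lists. Of 5 CDK inhibitor genes compared, members included, 1 was higher and none lower. That gene was Cdkn3, which encodes a phosphatase acting on CDKs, at 52.6 against 2.01 CPM. Of 11 cyclin and CDK genes 6 were higher and none lower, led by Ccna2 (71.9 against 1.52 CPM). Among 7 genes for p27 turnover 2 were higher, Cks1b, a cofactor of the ligase that marks p27 for degradation (300.3 against 86.3 CPM), and Ubac1 (28.0 against 13.4 CPM). Of 9 genes for pocket proteins and the DREAM complex, which silences cell-cycle genes at rest, 3 were higher, led by Rbl1 (31.9 against 11.7 CPM). Of 13 Btg, Tob and CCR4-NOT genes 1, Cnot6, was higher, and of 10 alpha-arrestin and thioredoxin genes none was higher or lower. Txn1, which encodes the thioredoxin that Txnip binds, had 1062 against 787 CPM. Of 13 FOXO and KLF genes 1 was lower, Pik3ip1, an inhibitor of PI3 kinase (248.7 against 398 CPM, log2 ratio -0.68). Of 7 p53 targets Trp53inp1 was higher and Plk2 lower, and of 5 genes around Cdkn1c none was past 1.5-fold. Between Mcm groups 4 and 1, 3 of the 13 FOXO and KLF genes were lower and 1 higher, beside 4.02% of all genes lower and 3.95% higher. The lower ones included Foxo1 (10.2 against 32.4 CPM) and Klf2 (27.4 against 48.0 CPM).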

How the data were processed

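Single cells were sequenced by a modified Smart-seq2 (STRT-seq) protocol with 3' enrichment, per the labels' protocols. The submitters' processing notes name Trimmomatic 0.36, HISAT2 2.1.0, HTSeq 0.9.1 and GRCm38. The authors deposited counts per gene and cell; no source used here says whether these are reads or molecules. Of 4271 cells, 4185 passed the filters (1000 or more genes counted, no more than 10% of counts from mt- genes), and 17 columns of a further library were not used. Sums were scaled to group totals (CPM), compared as log2 ratios of CPM + 1 and checked on simulated data, with Python 3.11.15, numpy 2.4.6, pandas 2.3.3, scipy 1.17.1 and matplotlib 3.10.9. Doublets were not called: the labels describe single-cell sorting with a doublet gate. Thinning used 20000 counts per cell and seed 1. Thinned log2 ratios used groups formed anew from the thinned counts. Shares of thinned cells with a count used the main groups. A marker defined a lineage where it reached 50 CPM in under 10% of the Procr+ cells with no Mki67 or Top2a count. All 9 genes were followed in each main comparison, and a gene not named there was not called higher or lower. Up to 3 genes per pathway list were taken by size of log2 ratio, and the 3 most alike per gene. The members and lists were chosen with earlier results of these data known, and the lineage rule and the split at 500 CPM were set after seeing the data.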

Additional observations from a re-analysis of the deposited data

How the results depend on the processing

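Under 16 alternatives, 3 of them chosen after seeing the data, 569 of 624 called values kept their call, 50 lost it without changing sign, and 5 reversed; 43 of 627 other values gained one. The reversals were Btg1 in primary-granule cells when thinned (-0.28) or with equal weight per cell (-0.37), and, by the median over libraries for Procr+ against Procr-zero cells, Cdkn1a (0.88), Btg1 (0.0053) and Btg2 (0.15). Counts that moved by over 1.5 times were as follows. In the cycling comparison of Procr+ cells, 1 gene was higher and 0 lower when thinned, with equal weight per cell or by the median over libraries; 0 were lower at a fold of 2, with any count of Mki67 or Top2a or with at least 50 CPM of Procr, and 2 at 100 CPM of Mki67 and Top2a. Between the outer Mcm groups, 1 was lower when thinned, with equal weight, by the median, with at least 50 CPM of Procr and without the neutrophil-rich libraries. Procr+ against Procr-zero cells gave 2 lower at a level minimum of 64 CPM or a fold of 2, and 1 higher and 0 lower by the median. Slamf1+ cells gave 1 higher and 0 lower at 64 CPM or a fold of 2, 0 lower at a pseudocount of 10 CPM or without the neutrophil-rich libraries, 2 lower with equal weight or at 50 CPM of Procr, and 3 by the median. Thinning gave 1 higher and 5 lower in B, 5 lower in plasma, 3 higher in neutrophil and 2 lower in erythroid cells. Equal weight gave 5 lower in B, 1 higher and 5 lower in plasma and 3 lower in erythroid cells. Plasma cells had 1 higher at 64 CPM, at a fold of 2 or at a pseudocount of 10, and without the neutrophil-rich libraries 5 lower, where erythroid cells had 2 higher. Leaving out 1 of 67 libraries in turn, the counts ranged from 0 to 1 higher and 0 to 1 lower for cycling, 0 to 1 lower between Mcm groups, 1 to 2 lower for Slamf1+ cells, 2 to 4 higher for B, 1 to 2 higher and 3 to 6 lower for plasma, and 0 to 2 higher for erythroid cells. A trimmed-mean scaling changed no count by over 1.5 times, with log2 scale factors of -0.17 (neutrophil), -0.19 (primary-granule), -0.17 (erythroid) and -0.51 (plasma). No paired analysis was possible because no cell could be assigned to a sample with a replicate number; groups were paired by library only as within-library values, with no test. Depth limits the genes with few detections: after thinning, the share of cells with a count ran from 8.57% (Cdkn1c) to 34.9% (Btg1) for Cdkn1a, Cdkn1b, Cdkn1c, Cdkn2c, Btg1 and Btg2.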
